A study of Mus musculus with 10 samples.

Results

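The flavin-containing monooxygenase genes Fmo1, Fmo2, Fmo4 and Fmo5 were taken by name from a table of 43629 genes measured by RNA-seq in mouse liver, which gave 4 genes of 43629. Their relatives Fmo6, with 0 to 8 reads in a liver, and Fmo9, with 0 reads in every liver, did not enter a test. The 4 genes were picked with their difference between the groups already known, and that difference is therefore given as a description.

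Flavin-containing monooxygenases sit in the endoplasmic reticulum and carry FAD. They take electrons from NADPH, bind oxygen and pass 1 oxygen atom to a soft nucleophile, usually a nitrogen or sulfur atom, of a drug or a metabolite. Liver is rich in these enzymes, which there help to clear drugs and other foreign compounds.

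The livers came from male KL mice on an FVB background, which carry floxed Lkb1 among their Cre-dependent alleles and develop lung tumours after an adenovirus that expresses Cre from a CMV promoter is given through the nose to adults. All 10 mice received the virus and carried tumours. The 5 NCACS mice (without cachexia-anorexia syndrome, numbered 11 to 15) had body weight changes of -14% to -3%, and the 5 CACS mice (with the syndrome, numbered 16 to 20) had changes of -33% to -29%. No tumour-free liver was analysed here, the labels name no batch, and the Cre was delivered to the airway and not to the liver.

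Each liver was 1 library, with 31945328 to 38306888 reads counted on genes in NCACS and 31459179 to 40746178 in CACS. Summed over 8 hepatocyte markers, the level was 80602 to 127632 CPM (reads of a gene relative to the library total scaled by TMM factors) in NCACS and 120487 to 145788 in CACS, with 0 of the 8 called different. In whole liver, fewer cells of a type and less RNA per cell cannot be told apart.

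Fmo1, Fmo2 and Fmo4 lie close together on the minus strand of chromosome 1 (GRCm38), and Fmo5 lies alone on the plus strand of chromosome 3. Fmo4 (ENSMUSG00000026692) spans chr1:162793188-162813972, and Fmo1 (ENSMUSG00000040181) follows at chr1:162829561-162866610. Fmo2 (ENSMUSG00000040170) spans chr1:162874317-162898726, and Fmo5 (ENSMUSG00000028088) spans chr3:97628804-97655282. The encoded proteins are close in size, with 532 residues for Fmo1, 535 for Fmo2, 560 for Fmo4 and 533 for Fmo5.

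The first 60 coding bases of each gene, from the GENCODE transcripts, are shown because they hold a binding motif for the FAD cofactor. The capitals mark the codons of the glycine-rich motif that binds FAD, at residues 9 to 14 of Fmo1, Fmo2 and Fmo4 and 10 to 15 of Fmo5.
Fmo1: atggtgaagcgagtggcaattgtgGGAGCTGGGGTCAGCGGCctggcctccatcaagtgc
Fmo2: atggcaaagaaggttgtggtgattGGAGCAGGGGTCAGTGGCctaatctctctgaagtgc
Fmo4: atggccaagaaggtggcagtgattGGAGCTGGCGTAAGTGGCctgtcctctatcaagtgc
Fmo5: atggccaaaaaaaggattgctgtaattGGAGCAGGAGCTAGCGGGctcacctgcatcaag

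These sequences also bear on how well the 4 genes can be counted apart. Their coding sequences were 57.5% (Fmo1 and Fmo4) to 61.7% (Fmo2 and Fmo5) identical. The longest run of bases shared by any pair among the 4 was 24, and 0 stretches as long as a 100-base read were shared.

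Per length, Fmo5 and Fmo1 were the most abundant of the 4 genes in both groups. Levels between genes were compared as CPM per kilobase of exon. Fmo5, which carries out Baeyer-Villiger oxidations of ketones more readily than N- or S-oxygenation, stood at 85.4 ± 6.35 CPM per kb in NCACS and 143 ± 40.6 in CACS (mean ± SD, n = 5 each). Fmo1, which oxygenates many amines and sulfides and can turn hypotaurine into taurine, stood at 33.9 ± 3.22 and 44.7 ± 14.9.

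The other pair was far lower in the NCACS livers. Fmo4, the least characterized of the 4, stood at 2.68 ± 0.282 CPM per kb in NCACS and 3.16 ± 0.396 in CACS. Fmo2, best known as a lung enzyme, stood at 1.78 ± 0.561 and 15.4 ± 13.7.

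Across all 10 livers, the top of this order kept its direction when exon lengths were used. The pairs were set by the mean levels of these same livers, and the livers of both groups were pooled. The p-values therefore speak only to the spread between livers and give no support to the order itself. Fmo5 exceeded Fmo1 in 10 of 10 livers, by a mean log2 difference in level of 1.52 (SD 0.33), with an exact two-sided sign-flip permutation p = 0.00195, the smallest that 10 livers allow, and a Benjamini-Hochberg adjusted p = 0.00293 over 3 neighbouring pairs. Fmo1 exceeded Fmo2 in 10 of 10 livers by a mean log2 difference of 3.15 (SD 1.45), with the same exact and adjusted p. By group, the latter difference was 4.31 (SD 0.57) in NCACS and 1.99 (SD 1.02) in CACS. These values use the union of each gene's exons as the length. With the longest transcript, Fmo5 over Fmo1 was 0.63 (adjusted exact p = 0.00293) and Fmo1 over Fmo2 was 3.71. With the shortest coding transcript, a 750-base fragment for Fmo1, Fmo1 came out above Fmo5 (mean log2 difference of Fmo5 over Fmo1, -0.34, adjusted exact p = 0.0156).

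The lower part of the order was not fixed. Over the 10 pooled livers the mean log2 difference of Fmo2 over Fmo4 was 0.56 (SD 1.57, exact permutation p = 0.299), but the groups had opposite signs. In NCACS it was -0.65 (SD 0.48), with Fmo2 the lower in 5 of 5 livers. In CACS it was 1.77 (SD 1.29), with Fmo2 the higher in 5 of 5 livers. The pooled p-value therefore describes neither group. Within a group of 5, the smallest two-sided p of this test is 0.0625.

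As a share of their summed level per length (with Fmo6, at most 0.0434% of it), Fmo5 took 69.0 ± 1.64% in NCACS and 70.1 ± 6.34% in CACS, and Fmo1 27.4 ± 2.02% and 21.7 ± 4.16%. The NCACS livers were alike in this make-up. Fmo2 made up 1.44 ± 0.476% of the NCACS sum and 6.61 ± 4.47% of the CACS sum, with a highest value of 13.8% in CACS 20. Fmo4 made up 2.16 ± 0.109% and 1.62 ± 0.374%. The summed level was 124 ± 8.49 CPM per kb in NCACS (115.9 to 135.8) and 207 ± 63.4 in CACS (134.1 to 272.4), so the CACS liver with the lowest sum lay within the NCACS range.

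**Figure D1:**
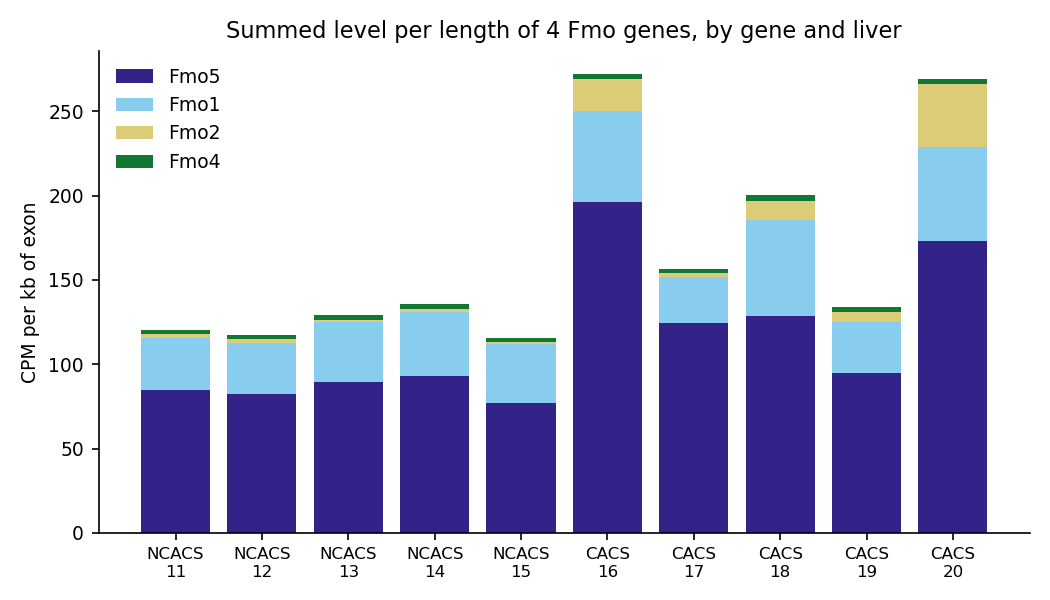
Summed level of Fmo1, Fmo2, Fmo4 and Fmo5 in each of the 10 livers, in CPM per kilobase of exon, with each bar divided by gene. Fmo5 and Fmo1 fill most of every bar, and the Fmo2 segment is widest in CACS 16 and CACS 20, where the sums were 272.4 and 269.6.

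Between the groups, 4 of 4 genes had a higher fitted level in CACS. Fmo2 and Fmo5 passed an adjusted p of 0.05 in edgeR's quasi-likelihood test across 14143 genes, of which 1.89% passed as higher, 1.92% as lower and 3.80% in either direction. The same pair passed in DESeq2, which called 9.75% of the genes. CACS lay above NCACS with no overlap for Fmo2 and Fmo5, as for 3.95% of all tested genes, and 7.07% did not overlap in either direction. The median log2 fold change was 0.57 over the 4 genes and -0.01 over all tested genes. Because the 4 genes were picked on this comparison, nothing is read from these counts.

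Fmo2 had CPM of 14.2, 11.4, 7.73, 10.3 and 6.15 in NCACS 11 to 15, and 107, 15, 65.4, 35.6 and 209 in CACS 16 to 20. Every CACS liver was above every NCACS liver, but CACS 17 exceeded the highest NCACS liver by little. The group means were 9.96 ± 3.14 and 86.3 ± 76.6 CPM, an 8.66-fold ratio of means, with a fitted log2 fold change of 3.11 (SE 0.59). Of 10 fits without 1 liver, 1 lost the call, that without NCACS 14. Others passed narrowly, with edgeR adjusted p = 0.0496 without CACS 16 and 0.0482 without NCACS 15. The lowest was 0.00700, without CACS 17. Without CACS 20 the log2 fold change was 2.48. From CACS 17 to CACS 20 the level spanned 13.9-fold.

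RefSeq lists starts of Fmo2 at more than 1 position, and the 250 bases upstream of the outermost are shown because Fmo2 had the largest ratio of group means among the 4 genes. They lie at chr1:162898759-162899008 on the minus strand of GRCm38.p6, and no annotated exon lies inside.
Fmo2: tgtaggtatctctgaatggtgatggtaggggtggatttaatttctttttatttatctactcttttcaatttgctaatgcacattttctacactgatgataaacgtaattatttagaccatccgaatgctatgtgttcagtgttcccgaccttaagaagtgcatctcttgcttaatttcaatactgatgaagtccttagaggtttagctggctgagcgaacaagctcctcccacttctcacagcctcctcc
Both strands were searched for 8 short motifs, and none of them was in this window. The window upstream of the other listed start, chr1:162898494-162898743, which overlaps an annotated exon and is not shown, held AGAACA at -125 and CAAAGT at -33 relative to that start, with no overlap between the motifs. Among 32851 promoter windows of this length, TTCNNNGAA (bound by STAT factors) was in 7.02%, TATAAA (the TATA box) in 12.4%, CACGTG (the E-box) in 6.02% and GCGTG (the core of the dioxin response element) in 28.2%. AGAACA (a glucocorticoid receptor half-site) was in 16.1%, GTTAAT (an HNF1 half-site) in 6.43%, CAAAGT (an HNF4 half-site) in 12.6% and CCAAT in 33.8%. The search says only which letters are in each window.

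Fmo5 had CPM of 481, 468, 509, 529 and 436 in NCACS and 1113, 706, 729, 540 and 983 in CACS. The groups did not overlap, although CACS 19 was barely above NCACS 14. The means were 485 ± 36 and 814 ± 230, a 1.68-fold ratio, with a fitted log2 fold change of 0.75 (SE 0.18). Its call was lost in 8 of 10 fits that each left out 1 liver (without any of NCACS 11 to 15 or CACS 16, 18 or 20), with log2 fold changes of 0.61 to 0.79 in those fits.

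Fmo1 and Fmo4 overlapped between the groups and did not pass the test. Fmo1 had CPM of 193, 192, 224, 237 and 223 in NCACS and 340, 171, 358, 188 and 351 in CACS. CACS 17 and 19 lay below every NCACS liver and the other 3 above every NCACS liver. The Fmo1 log2 fold change was 0.40 (SE 0.21). Fmo4 had CPM of 9.97, 8.74, 10.1, 11.5 and 9.33 in NCACS and 12.4, 9.65, 12.9, 10.7 and 13 in CACS, with a log2 fold change of 0.24 (SE 0.12). As for Fmo1, CACS 16, 18 and 20 were above the NCACS range, while CACS 17 and 19 were inside it.

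**Figure D2:**
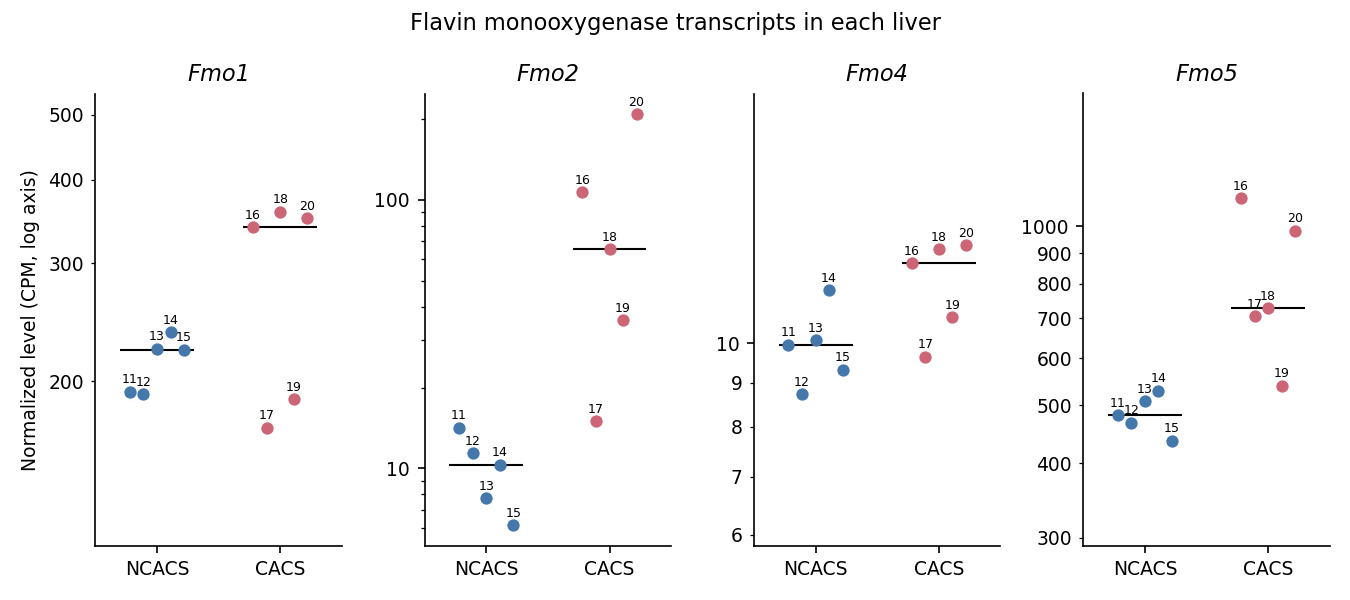
CPM of Fmo1, Fmo2, Fmo4 and Fmo5 in each liver on log axes, 1 panel per gene, with the mouse number beside each point and a bar at the group median. In every panel CACS 16, 18 and 20 lie above CACS 17 and 19.

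**Figure D3:**
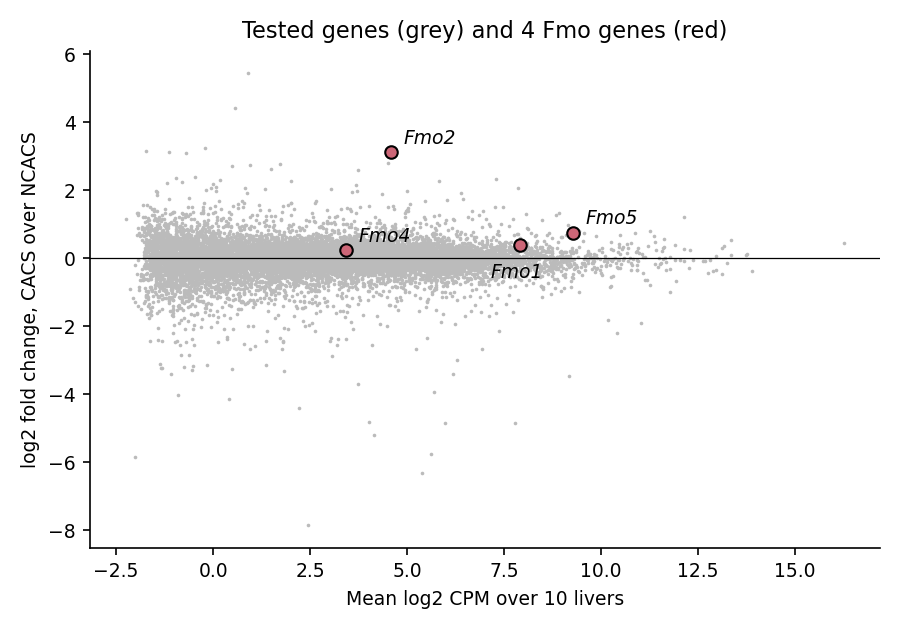
Fitted log2 fold change of CACS over NCACS against mean log2 CPM over 10 livers, for tested genes (grey) and Fmo1, Fmo2, Fmo4 and Fmo5 (red). Fmo2 is at 3.11, and Fmo1, Fmo4 and Fmo5 are at 0.24 to 0.75.

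Within the CACS group the same livers ranked highest for all 4 genes, though for Fmo5 by a small margin. CACS 16, 18 and 20 exceeded CACS 17 and 19 for 4 of 4 genes, a division seen in 9.03% of all tested genes (1277 of 14143). Relative to the NCACS mean, Fmo2 was 10.7-fold in CACS 16, 6.57-fold in CACS 18 and 21-fold in CACS 20, against 1.5-fold in CACS 17 and 3.57-fold in CACS 19.

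Fmo1 showed a narrower version of this division. Fmo5 showed it only in ranks, since its CACS 18 was barely above CACS 17. Fmo1 was at 1.59, 1.68 and 1.64 times the NCACS mean in CACS 16, 18 and 20, and at 0.799 and 0.880 times in CACS 17 and 19. Fmo5 was at 2.30, 1.5 and 2.03 times in the first 3, and at 1.46 and 1.11 times in the other pair. Body weight change was -32%, -33% and -29% in CACS 16, 18 and 20 and -29% and -30% in CACS 17 and 19, and its relation to the division was not tested. The rule that picked the 4 genes used these same livers, and the division was noticed after their values were seen.

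**Figure D4:**
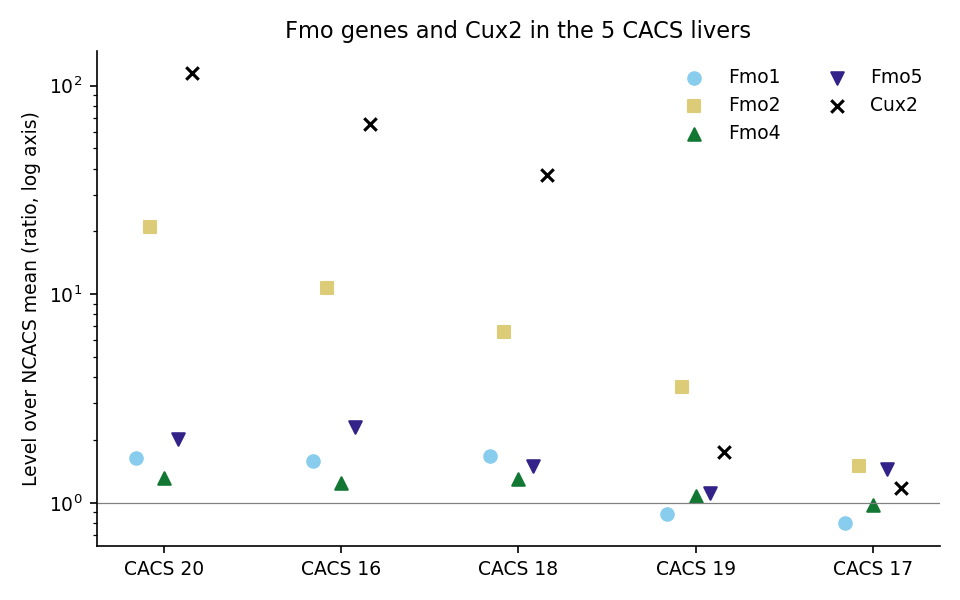
Level of Fmo1, Fmo2, Fmo4, Fmo5 and Cux2 in each CACS liver divided by the NCACS mean, on a log axis, with livers ordered by Fmo2. Fmo2 runs from 21 in CACS 20 to 1.5 in CACS 17, and Fmo4 stays between 0.972 and 1.31.

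The coefficient of variation between CACS livers was 88.8% for Fmo2, of which counting error alone would give 2.61%. Fmo1 and Fmo5 varied by 33.3% and 28.3% in CACS, and by 9.50% and 7.43% in NCACS. Fmo4 varied by 12.5% and 10.5%, against a median over all tested genes of 17% in CACS and 18% in NCACS. Among all tested genes the CACS variation of Fmo2 stood at the 98.8th percentile and that of Fmo4 at the 33.5th.

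The genes whose pattern across the livers was most like each member were found from log2 CPM centred within each group, over 10 livers. The 9233 genes compared had at least 5 CPM on average over all 10 livers. Centring took the difference between group means out of the patterns, but not out of this choice of genes. Likeness was the mean absolute difference between the patterns after scaling each to an SD of 1. For Fmo2 the likest genes were Atg16l1 (autophagosome formation) at 0.260 SD, Stim2 (a calcium sensor of the endoplasmic reticulum) at 0.264 and Cux2, a female-predominant transcription factor of mouse liver, at 0.275. Cux2 averaged 0.466 CPM in NCACS and 20.5 in CACS, and so was among the genes compared only through its CACS level. Among the 4 Fmo genes themselves, Fmo1 and Fmo4 were the nearest pair at 0.406 SD, with 0.206% of the genes nearer to Fmo1, and Fmo4 and Fmo5 the farthest at 0.658.

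For Fmo1 the likest genes were Cd1d2 (lipid antigen presentation) at 0.110 SD, Rbm25 (a splicing factor) at 0.224 and Prkag2 (a regulatory subunit of AMP-activated kinase) at 0.241. For Fmo4 they were Ndfip2, an adaptor of ubiquitin ligases, at 0.299, Zfp217 at 0.353 and Trim24, a nuclear receptor cofactor, at 0.384. For Fmo5 they were Papss2 (synthesis of the sulfate donor PAPS) at 0.226, Ttpa (vitamin E transfer) at 0.265 and mt-Nd6 (a subunit of respiratory complex I) at 0.288. All these patterns share the same 10 libraries.

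The genes beside the Fmo genes did not pass the test. Within 250 kb, 3 other tested genes lay near the chromosome 1 cluster, namely Vamp4, Prrc2c and Mettl13, with log2 fold changes of 0.01 to 0.41. Near Fmo5 lay 4, namely Chd1l, Prkab2, Pde4dip and Sec22b, with -0.08 to 0.55. Of these 7 genes, 0 were called by edgeR in either direction.

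Of 104 genes listed for cofactor supply, electron transfer, substrates, regulation and sex bias, 89 were tested. Of these, 8 passed, or 8.99%, beside 3.80% of all tested genes, with Cux2, Hnf4a and Arnt higher and 5 lower. The lists were chosen with earlier results of these data known, so nothing is read from this share. The synthesis of FAD (5 tested genes, median log2 fold change 0.10) and the supply of NADPH (9 tested, median -0.19) had 0 called. Rfk (riboflavin kinase) and Flad1 (FAD synthase) had log2 fold changes of 0.00 and 0.10, and H6pd, which makes NADPH inside the endoplasmic reticulum, had -0.47. Aldh1l1, a folate enzyme that also makes NADPH, had -0.10.

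Among 7 tested genes of microsomal electron transfer (median -0.15), 1 was called, the outer mitochondrial membrane cytochrome Cyb5b, lower by a log2 fold change of -0.82 (edgeR adjusted p = 0.00764). Its microsomal relative Cyb5a had a log2 fold change of 0.29 and the heme-binding Pgrmc1 one of -0.32, and neither passed. Of 12 tested genes of taurine and cysteine metabolism, 0 were called and the median was -0.01. Cdo1 (cysteine dioxygenase) and Cbs (cystathionine beta-synthase) had log2 fold changes of 0.02 and -0.12. Of 13 tested genes of choline and carnitine metabolism (median -0.21), Tmlhe, the first enzyme of carnitine synthesis, was called lower at -0.70 (edgeR adjusted p = 0.0327). The abundant Bhmt and Sardh, which act on betaine and sarcosine, had log2 fold changes of -0.21 and -0.26 and did not pass.

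Of 21 tested regulators (median 0.05), 3 were called, and all 3 were higher, beside 1.89% of all tested genes called higher. Of the 21, 11 had log2 fold changes above 0 and 10 below 0. This list was also chosen with earlier results known, so nothing is read from the count. Hnf4a, a hepatocyte nuclear receptor, rose by 0.50 on the log2 scale (edgeR adjusted p = 0.0435), and Arnt, the partner of the aryl hydrocarbon receptor, by 0.53 (edgeR adjusted p = 0.0165). Cux2, the gene of likest pattern ranked 3 for Fmo2, had CPM of 0.653, 0.597, 0.291, 0.482 and 0.309 in NCACS and 30.6, 0.551, 17.3, 0.817 and 53.4 in CACS. Cux2 was high in CACS 16, 18 and 20 and near the NCACS range in CACS 17 and 19. Its order of CACS livers was that of Fmo2, which 0.990% of tested genes showed. Likeness to Fmo2 was measured over these same livers, so the shared order is no separate result. The Cux2 log2 fold change was 5.44 (edgeR adjusted p = 0.0298), a call lost in 8 of 17 alternatives, limma-voom among them. Of 18 alternatives, the call of Hnf4a was lost in 10 and that of Tmlhe in 6, while Arnt and Cyb5b kept theirs in all 18.

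Markers of other cell types were mostly not called. Those of lung epithelium are given by liver because Fmo2 is best known as a lung enzyme. The summed level of 8 lung epithelial markers was 3.06, 7.77, 8.47, 6.14 and 8.25 CPM in NCACS 11 to 15. In CACS 16 to 20 it was 12.2, 4.75, 10.8, 3.55 and 9.65 CPM, within that group higher in CACS 16, 18 and 20. Of the 5 tested, Sftpa1 was called higher with a log2 fold change of 1.27 (edgeR adjusted p = 0.0323), and 4 did not pass, with log2 fold changes of 0.44 for Sftpc, -0.07 for Sftpd, -0.31 for Napsa and -0.97 for Scgb1a1. Nkx2-1, Sftpc, Sftpb, Scgb1a1 and Lamp3 each had 0 reads in some livers. Sftpc, a defining marker of alveolar cells, had 3, 43, 38, 42 and 44 reads in NCACS and 88, 0, 105, 1 and 41 in CACS. Fmo2 had 478, 458, 239, 343 and 199 reads in NCACS and 4271, 571, 2005, 1263 and 7289 in CACS. The part of these cells in the Fmo2 level was not tested. Endothelial, stellate, Kupffer, lymphoid, cholangiocyte and adipocyte lists overlapped between the groups in their summed levels, and among them only Adrb3, of the adipocyte list, was called, and was lower. Median sums in NCACS and CACS were 194 and 140 CPM for Kupffer, 13.4 and 8.27 for lymphoid, 228 and 206 for stellate and 35.4 and 27.5 for cholangiocyte. They were 178 and 189 for endothelial and 19.5 and 22.4 for adipocyte. Differences in these sums were not tested.

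**Figure D5:**
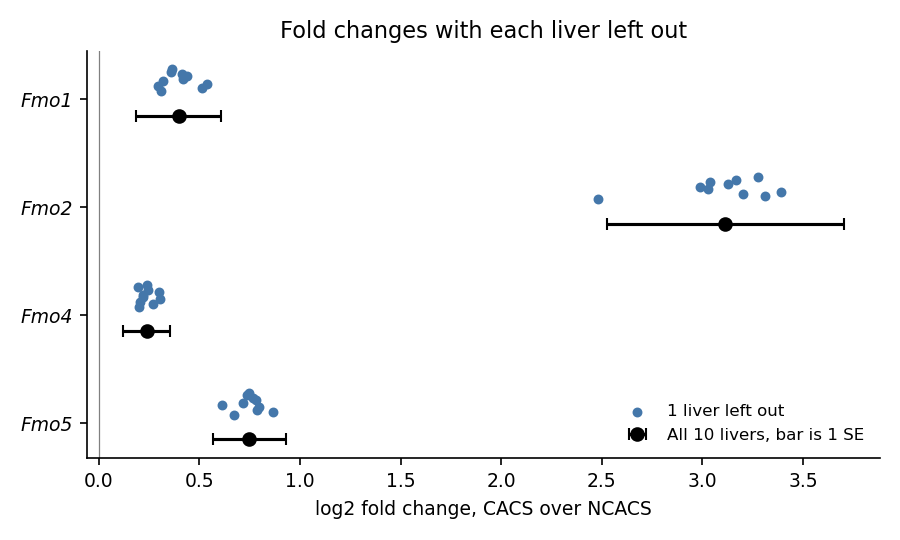
Log2 fold change of CACS over NCACS for Fmo1, Fmo2, Fmo4 and Fmo5 with all 10 livers (black, bar 1 SE) and with each liver left out in turn (blue). Fmo2 ranged from 2.48 to 3.39 and Fmo5 from 0.61 to 0.87, all above 0.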

How the data were processed

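Total liver RNA from 10 mice was sequenced as stranded poly(A) libraries of single 100-base reads. The deposited values are raw gene counts, which the authors made with STAR 2.4.1d and HTSeq 0.6.1 on GRCm38. The annotation release and strand setting are not given in the sources used here. Positions and lengths were taken from GENCODE M21, in which 1081 of the 43629 identifiers have no entry.

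Counts were filtered with filterByExpr (14143 genes kept, all 4 Fmo genes among them), scaled by TMM and fitted with edgeR 4.0.16 (R 4.3.3) on group alone, with the quasi-likelihood test and Benjamini-Hochberg adjustment at 0.05 over all tested genes. The procedure was tested on simulated counts. Levels between genes were compared per exon kilobase by an exact sign-flip test over livers. Alternatives were DESeq2 1.42.0, limma-voom (limma 3.58.1), other scaling and filters, and leaving out each liver.

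Mice were grouped by their labels. The genes and the lists were chosen with earlier results of these data known. Beyond the Fmo genes, the text names up to 4 called genes per list by smallest p, or the 2 most abundant where fewer than 2 passed, the 3 genes of likest pattern for each listed member, and tested neighbours within 250 kb. Some items are not reported here. Counting errors cover sampling of reads only.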

Additional observations from a re-analysis of the deposited data

How the results depend on the processing

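The direction of all 4 Fmo fold changes was kept in every fit made. Leaving out each liver gave log2 fold changes of 0.30 to 0.54 for Fmo1, 2.48 to 3.39 for Fmo2, 0.20 to 0.31 for Fmo4 and 0.61 to 0.87 for Fmo5. Fmo1 and Fmo4 stayed short of the threshold in 18 of 18 alternatives each. Fmo2 lost its call in 1 (without NCACS 14, log2 fold change 3.13, edgeR adjusted p = 0.0501). Fmo5 lost its call with no filter (0.75, edgeR adjusted p = 0.0532) and in 8 of 10 fits without 1 liver. The causes were not tested.

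With the main settings 538 genes passed (267 higher, 271 lower), with DESeq2 1379 (670 higher, 709 lower), and with no filter 173 were higher. Without 1 liver, 178 to 519 passed, 79 to 246 higher and 96 to 273 lower. Of the related genes 8 passed, 21 with DESeq2 and 2 to 8 without 1 liver. Among them, Arnt and Cyb5b kept their calls in 18 of 18 alternatives.

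With the shortest coding transcript as length, the mean log2 difference was -0.34 for Fmo5 over Fmo1 and 1.43 for Fmo2 over Fmo4, the latter then past the threshold. Without 1 liver and with exon lengths, these were 1.45 to 1.57 and 0.24 to 0.75. No paired analysis was possible because mice 11 to 15 and mice 16 to 20 have no number in common. Fmo2 and Fmo4 had the fewest reads in NCACS, 199 to 478 and 302 to 383, with counting errors of 5.73% and 5.47%.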

Other observations

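Genes known to differ between the sexes in mouse liver were listed apart. Of 13 tested male-biased genes, 13 had log2 fold changes below 0 in CACS, with a median of -0.86, beside 50.6% below 0 and a median of -0.01 over all tested genes. Of the 13, 2 were called lower, beside 1.92% of all tested genes. This list too was chosen with earlier results of these data known, so nothing is read from these counts. The called pair, by edgeR's test across all genes, was Mup12, a major urinary protein, at -4.41 (adjusted p = 0.0327) and Cyp2u1, a cytochrome P450, at -1.18 (adjusted p = 0.0397). The groups overlapped for Mup12, which ranged from 2.71 to 73.7 CPM in NCACS and from 0.289 to 3.82 in CACS. Of 10 tested female-biased genes (median -0.19), 1 was called higher, Cux2, and 1 lower, Hao2, a peroxisomal hydroxy acid oxidase, at -4.03 (adjusted p = 0.0323). Hao2 also overlapped between the groups and had few reads, 7 to 174 in an NCACS liver and 2 to 11 in a CACS liver. The calls of Mup12, Hao2 and Cux2 were lost with limma-voom, and that of Cyp2u1 with raw library totals. Counting the fits without 1 liver, Mup12 and Cyp2u1 each lost their call in 9 of 18 alternatives and Hao2 in 8 of 17.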
